A study of Anopheles gambiae with 5 samples.

Results

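The data described here are the regions of the Anopheles gambiae genome that were enriched for trimethylation of lysine 27 of histone H3 (H3K27me3) in midguts of adult females, each called by the authors against an input library from the same tissue. All 12939 regions of the deposited list were kept, so that nothing was selected on a measured value. The list comes from 1 H3K27me3 library and 1 input library of the Kisumu laboratory strain, made from pooled midguts of females aged 6 to 8 days that had been offered sugar solution, and is 1 experiment of a series of 5 libraries. The ChIP antibody came from Millipore. As there is no replicate, no difference below was tested between animals, and the 95% intervals cover counting error only. The list holds positions and 1 number per region, so the midgut label could not be checked against marker genes.

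H3K27me3 is placed on histone H3 by a Polycomb repressive complex, whose catalytic subunit is Enhancer of zeste in Drosophila, and is bound by a further Polycomb complex that compacts chromatin. In flies it spreads over broad domains that can hold several genes and the sequence between them, and it is known for keeping homeotic genes silent outside the body segments where they act. The regions were called by SICER, which scores the genome in windows of 200 bp and joins enriched windows across gaps of up to 600 bp into islands, a term used below for the regions of the list. Positions are those of the AgamP4 assembly, counted from 1.

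Islands were unequal in size and covered 53153200 bp in all. Their lengths ran from 200 to 130800 bp with a median of 2400 bp. Each island carries a whole number in column 4 of the list, from 39 to 23492 with a median of 248 (interval 243 to 252). The column has no name in the file, and it was read here as the number of ChIP reads in the island, since it holds whole numbers only and rose with length (Spearman's rho = 0.94 across islands, which share 1 library). It could instead be a score of the caller, in which case the counting intervals given below would not apply. It is neither scaled to depth nor corrected for the input, and it sums to 6679194 over the list. If it is a read count, counting error alone gives a 95% interval of ± 32.8% for the lowest island, ± 12.7% for the median and ± 1.28% for the highest.

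Divided by island length, column 4 ran from 49.5 to 533.75 per kb with a median of 103 (interval 102 to 103). Density and length were almost unrelated by rank over the whole list (rho = 0.04), but the relation was not flat. The shortest islands, of 200 to 400 bp, had a median of 135 per kb, and none of them was below 120 per kb. The lowest value was 68 per kb in islands of 600 to 1000 bp and 55.7 in those of 1200 to 2000 bp. An island is listed only if it passes the caller's cutoff against the input, which a short island can pass only at high density. The high values of the shortest islands are therefore not read as a trait of them. The median was lowest in islands of 2200 to 5000 bp, at 96.8 per kb (interval 95.8 to 97.8, n = 4718). It reached 129 per kb (interval 125 to 132) in the 880 islands longer than 10000 bp and up to 50000 bp, and 189 per kb (interval 161 to 206) in the 37 islands longer than 50000 bp. Long islands were thus denser as well as wider than islands of middle length. The 880 islands were 6.80% of the list by number and held 28.6% of its bases and 33.5% of its column 4 total, and the 37 longest held 4.88% and 7.30%.

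**Figure D1:**
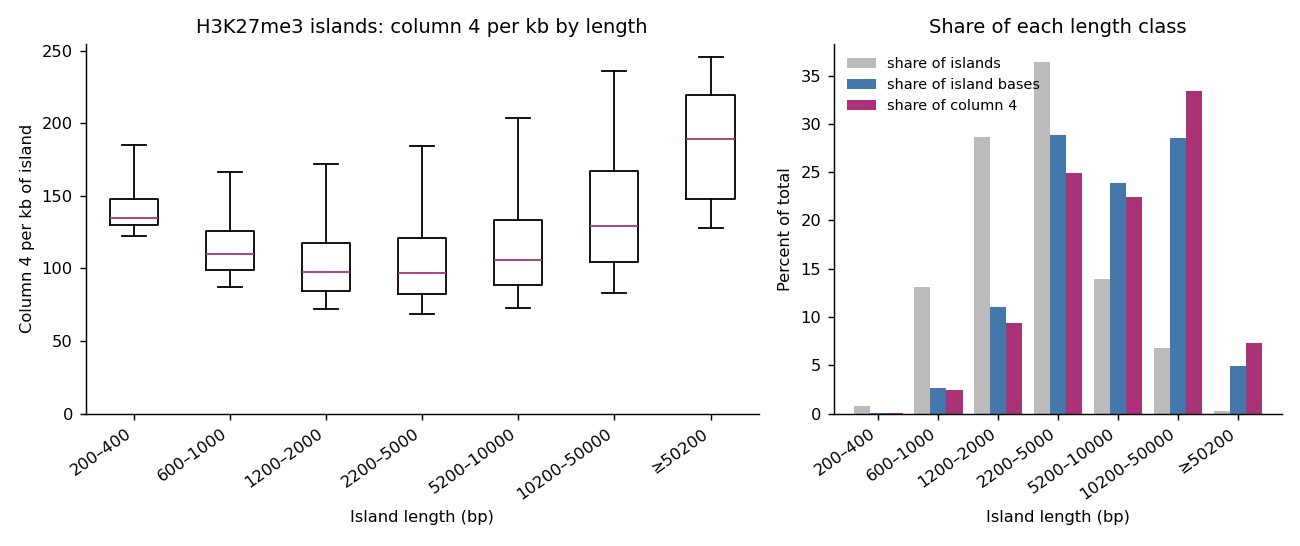
Left, column 4 per kb of island (vertical axis) by island length in bp (horizontal axis) for all 12939 H3K27me3 islands, with boxes for the quartiles, red lines for the medians and whiskers from the 5th to the 95th percentile. Right, the percent of islands, of island bases and of the column 4 total in each length class. The medians fall from 135 to 96.8 per kb and then rise to 189 per kb in the longest class. Short islands are listed only if dense enough to pass the caller's cutoff.

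The islands with the most reads by this reading were long blocks that held few genes. The highest value, 23492, belonged to an island on X from 1640601 to 1722200 (288 per kb, counting interval 284 to 292), and its only gene, AGAP001493, is 1464 bp long and took up 1.79% of it. The second, at 23470, ran over 115800 bp on 3R from 3501001 to 3616800 and touched AGAP007973 and AGAP007974, which filled 20.2% of it. Next came 22295 on 2R from 52270601 to 52357400, with 72.2% of its bases inside AGAP004228, a gene of 83428 bp. The share of the island inside gene spans was under 40% in 8 of these 10 islands and 0 in 1 of them, the longest island of the list. Over all islands, exons held 9.98% and introns 21.3% of island bases, so a share under 40% does not set these islands apart.

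Some of these blocks were separated from a dense neighbour by 800 bp, the smallest gap in the list. The longest island, on 2R from 863801 to 994600, carried 168 per kb. After 800 bp it was followed by an island of 97200 bp with 216 per kb, and after a further 800 bp by a last one, with 191 per kb. These 3 islands spanned 299800 bp of which 99.5% was under islands. The number of islands in such a block depends on where the 600 bp rule breaks it, so counts of islands are given below beside the bases they cover.

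Islands with the highest density formed a different group, and several were short. The highest, 533.75 per kb (counting interval 484 to 587), was an island of 800 bp on 2R from 57956201 to 57957000 that lay whole inside AGAP004581, a gene of 1215 bp. Its nearest neighbours were 129400 bp before it and 21400 bp after it. The second, 530 per kb on X from 1723601 to 1724200, followed the island of highest column 4 after 1400 bp. Another, with 492 per kb on X from 24383801 to 24390600, was the last island on X. Of the 10 densest islands, 7 touched no gene, beside 61.7% of all islands, so this is no trait of the group. On UNKN, the pool of unplaced sequence, lay 2 of the 10, beside 160 of all 12939 islands. The authors filtered out reads that mapped to repeats.

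Genes were taken as the 11868 annotated genes on the chromosome arms 2L, 2R, 3L, 3R and X and on UNKN for which the authors' assembly holds at least 1 transcript with class code =, which marks a match of introns to the annotation, and each gene region was the gene span with 200 bp added on each side. The ends of these spans come from the assembly and can differ from the annotated ones. At least 1 island touched 3402 of them, which is 28.7% (interval 27.9 to 29.5%), and this share is the background for every count of genes below. On 4 of the arms it lay between 27.5% on 3L and 29.8% on 2L. On X it was 39.4% (382 of 970 genes, interval 36.4 to 42.5%), and on UNKN 2.24% (12 of 536). X also had the longest islands by median, 3000 bp against 2200 to 2600 bp on the autosomal arms, and the highest median density among the arms, 110 per kb against 100 to 105. Column 4 is not corrected for the input, so a density here is that of the ChIP library alone.

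Most genes with H3K27me3 had a single island. There were 2492 of them (73.3%), while 495 had 2 islands, 300 had 3 to 5, 82 had 6 to 10 and 33 had more than 10. Several islands were found in 910 genes. This number was 603 with islands of at least 2000 bp only, 492 with islands at or above the median density and 476 with islands up to 2000 bp apart merged. Genes with several islands were mostly long, although 11 of them were of 1000 to under 2000 bp and 92 of 2000 to under 5000 bp. The median gene length was 1941.5 bp for genes with 1 island, 9755 bp for those with 2 and 96111 bp for those with more than 10.

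The share of genes that were touched rose with gene length in every class. It was 20.3% (565 of 2790) for genes under 1000 bp, 32.7% (456 of 1395) for genes of 5000 to under 10000 bp and 77.2% (166 of 215, interval 71.2 to 82.3%) for genes of 50000 bp or more. None of the 565 touched genes under 1000 bp had several islands, against 141 of the 166 longest (84.9%). The cover of the gene ran the other way. The median share of the gene span under islands was 100% in touched genes under 2000 bp, 67.3% in those of 5000 to under 10000 bp and 26.02% (interval 21.1 to 37.0%) in those of 50000 bp or more. Density changed little along this series, with medians of 110.5 to 117 per kb in the classes up to 20000 bp, 104 in genes of 20000 to under 50000 bp and 97.8 in the longest. A longer gene offers more bases to be touched, so the rise in the share of touched genes is no measure of enrichment.

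**Figure D2:**
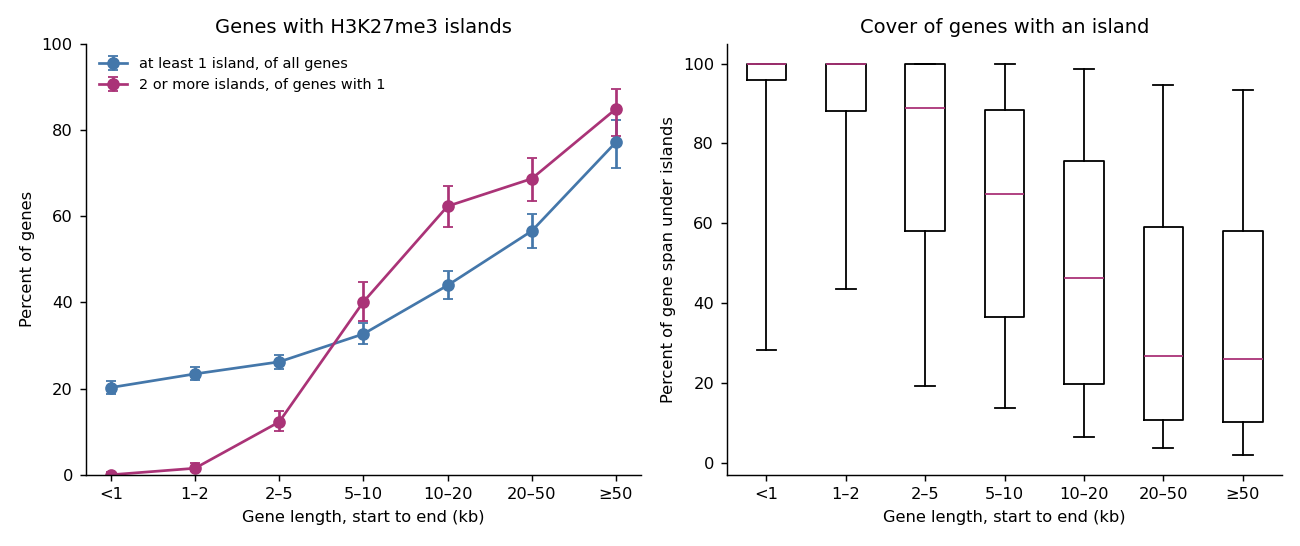
Left, the percent of genes (vertical axis) with at least 1 H3K27me3 island among all genes, and with 2 or more islands among genes that have 1, by gene length in kb, with 95% Wilson intervals. Right, the percent of the gene span under islands in genes with an island, with boxes for the quartiles, red lines for the medians and whiskers from the 5th to the 95th percentile. The share of touched genes rises from 20.3% to 77.2% while the median cover falls from 100% to 26.02%.

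Genes that were covered more completely also had denser islands. Of the 3402 genes, 1201 (35.3%) lay whole under islands, 1540 had at least 90% of the span covered, 2446 (71.9%) at least 50%, and 51 were touched only in the 200 bp flank. The median density was 122 per kb (interval 119 to 125) in genes covered to at least 90%, 118 (interval 116 to 120) in those covered to at least 50% and 99.3 (interval 97.5 to 101) in those below 50%. The density of a gene is that of the whole islands touching it, including bases outside the gene. A longer island can cover more of a gene, and the longest islands were also the densest by length class. This is therefore no separate result about genes. Single-exon genes were touched in 21.6% of cases and genes with more than 5 exons in 40.2%, but all genes of these classes had median lengths of 450 and 8913.5 bp.

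The genes with the most islands carry only identifiers in these files and were 61921 to 252397 bp long. AGAP011379, on 3L from 22756531 to 22985795 on the plus strand, had 35 islands, of which 32 lay in introns only. Together they covered 71.2% of its span at 115 per kb, and single islands ran from 79.4 to 282 per kb. A gene further along, AGAP011384, from 23005657 to 23200840 on the minus strand, had 27 islands that covered 33.2% of it. AGAP006188 on 2L had 29 islands over 60.1% of its span, and AGAP002677 on 2R had 24 over 66.5%. The number of islands and the cover were thus not in the same order.

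AGAP002315 differed from the other genes of this group. It lies on 2R from 19231025 to 19483421, and 23 islands covered 83.9% of its 252397 bp at 159 per kb, the highest density of the 10 genes with the most islands, the other 9 of which had 86.6 to 115 per kb. Its exons, 2216 bp in all, were almost free of islands, with 1.35% covered, against 84.6% of its introns. It also held the longest island of the list to lie in introns only, of 34400 bp and 174 per kb, on 2R from 19292201 to 19326600. In AGAP002677 the order was reversed, with 97.0% of 2770 exon bases and 65.97% of intron bases covered.

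Over all genes, exons and introns were under islands to nearly the same extent. Islands covered 22.0% of exon bases, 22.9% of intron bases, 17.8% of the bases in 200 bp flanks and 18.3% of the remaining sequence. The last share includes UNKN, where 0.532% of the sequence outside gene regions was covered, against 20.7 to 29.8% on the arms. Exons made up 31.9% of the gene bases under islands and 32.7% of all gene bases. On X the exon share exceeded the intron share, 29.5% against 23.5%, whereas on 2R the introns were covered more, 25.9% against 21.5%. On 2L, 3L and 3R islands covered 21.3 to 21.9% of exon and 20.2 to 22.3% of intron bases.

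By number, most islands lay outside the annotated genes used here, as did most of the sequence: 71.5% of all bases and 67.4% of island bases were outside gene regions. The share of islands touching a gene, 38.3%, was 45.1% with class codes =, j and o together. The paper reports that more peaks overlap genes once its newly found transcripts are added. Of the 12939 islands, 7985 (61.7%, interval 60.9 to 62.5%) touched no gene region, 36 touched a flank only, 1241 (9.59%) lay in introns only and 3677 (28.4%) touched an exon. Islands that touched an exon were longer: their median length was 3200 bp, while that of islands in introns only and of islands outside genes was 2200 bp. An island counted as exon if it reached any exon base, while one in introns only had to fit between exons. Longer islands thus fall into the exon class by construction. Islands that touched an exon were also denser, at 112 per kb (interval 111 to 113) against 95 (interval 93.0 to 96.9) in introns only and 100 (interval 99.1 to 101) outside. The difference in density was also present among islands of one size. Between 2000 and 5000 bp the medians were 107.5 per kb (interval 105 to 110, n = 1538) for exons, 88.2 (interval 87.1 to 90.4, n = 521) for introns only and 94.5 (interval 93.4 to 95.3, n = 3287) outside.

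Within single genes that were partly covered, exons more often had the larger share. There were 2063 such genes with introns, and 1204 of them (58.4%, interval 56.2 to 60.5%) had a larger share of exon than of intron bases under islands, with medians of 72.8% and 47.1%. Every gene span starts and ends in an exon, so an island that only crosses a gene end reaches exon first. This can raise the exon share by construction. Over all genes, exons made up 31.9% of gene bases under islands and 32.7% of all gene bases. In genes of 10000 bp or more this held for 549 of 877 (62.6%) and in shorter genes for 655 of 1186 (55.2%). Among the introns of touched genes, 42.5% of the first intron and 37.0% of later introns was covered.

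Islands often stopped near the ends of genes. In genes of 2000 to under 10000 bp, 14.9% had an island 1000 bp before the gene start, 20.04% at the start and 21.2% at 500 bp into the gene. At the other end, 21.4% had an island 1000 bp before the gene end, 15.6% at the end and 11.7% at 500 bp past it. Genes of 10000 bp or more showed the same order, with 19.7%, 24.4% and 24.8% around the start and 21.5%, 17.7% and 13.2% around the end. Just outside genes of 2000 to under 10000 bp, cover was therefore lower than just inside them and lower than further away. The shares were 22.0% at 20000 bp before their start and 22.1% at 20000 bp past their end. In genes of 10000 bp or more this held past the end, where the share was 21.1% at 20000 bp. Before their start it was less clear, with 21.2% at 500 bp and 22.5% at 20000 bp before it, beside 20.8% at 2000 bp into the gene. Counted per gene, 833 of 11868 genes had an island over the first base but not over the last, and 398 the reverse.

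**Figure D3:**
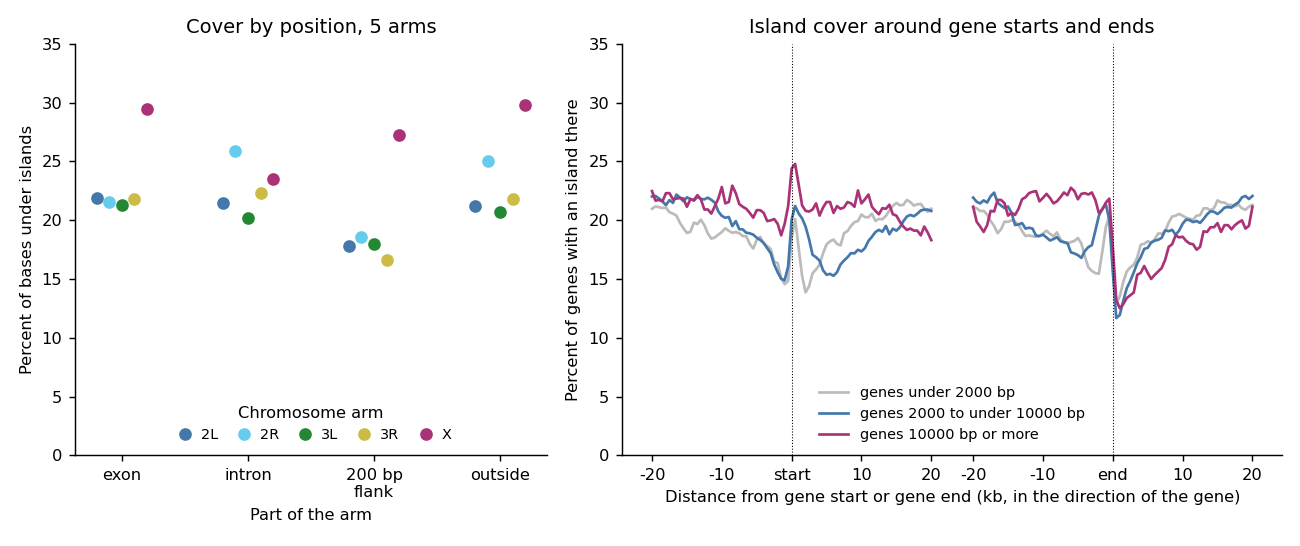
Left, the percent of bases under H3K27me3 islands (vertical axis) in exons, introns, 200 bp flanks and the remaining sequence, with 1 point for each chromosome arm. Right, the percent of genes with an island at each distance from the gene start and the gene end (horizontal axis, kb in the direction of the gene, steps of 500 bp), for genes of 3 length classes. X lies highest in exons, flanks and outside genes, and all 3 lines fall just past the gene end, to between 11.7% and 13.2% at 500 bp.

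Islands inside long genes were spread over the whole gene. Of 2117 islands that lay whole inside genes of 10000 bp or more, the midpoints fell in 5 equal parts of the gene, from its start to its end, in 343, 458, 486, 447 and 383 cases. An island near an end can cross it and is then not counted, which lowers both end values.

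Most islands away from the annotated genes used here were more than 5000 bp from them, though unannotated transcripts were not counted as genes. The 7985 islands that touched no gene region lay at a median of 13683 bp (interval 13148 to 14167) from the nearest gene span. Of these, 24.1% were within 5000 bp and 37.8% were more than 20000 bp away. The distance to genes was not computed for all sequence outside genes, so these values are not read as a trait of the islands.

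An island touched a single gene in 4404 cases and several in 550, or 11.1% (interval 10.3 to 12.0%) of the 4954 islands that touched any. The 550 became 876 with flanks of 1000 bp and 361 with islands at or above the median density. There were 454 islands with 2 genes, 63 with 3, 21 with 4, 7 with 5, 4 with 6 and 1 with 8. Island length and density were both higher in islands with more genes. A longer island reaches more genes, and the longest islands were also the densest by length class, so neither is a separate result about genes. The median length was 2200 bp with no gene, 2800 bp with 1, 5200 bp with 2 and 8100 bp (interval 6800 to 9800) with 3 or more, and the median density 100, 106, 115 and 124 per kb (interval 112 to 136 for the last). In 179 of the 550 islands the gene spans joined by overlap into a single unbroken stretch, which includes genes nested side by side in a longer one.

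The island with the most genes touched 8 in only 7200 bp. It lies on 2R from 29086201 to 29093400 at 112 per kb (counting interval 104 to 120), and 5 genes of 645 to 739 bp, AGAP013083, AGAP013471, AGAP012948, AGAP013261 and AGAP013347, lay whole inside it. These 5 are single-exon genes on the plus strand, and a further one, AGAP013114, was touched in its flank only. AGAP002898 and AGAP013272 are on the minus strand and reach beyond the island. AGAP002898, of 16047 bp, spans the other 7 genes, so this island holds genes nested within a longer one.

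The next 4 islands each touched 6 genes and were all on 2L. The densest ran from 39108201 to 39126000 with 215 per kb (counting interval 208 to 222), held AGAP006831, AGAP006832, AGAP006833, AGAP006834 and AGAP028401 whole, and covered the start of AGAP006835, a gene of 21551 bp on the plus strand of which 76.8% was under islands. An island from 19204001 to 19211200 touched a row of 6 genes of 953 to 1138 bp with 3 exons each, AGAP005704 to AGAP005709, at 100 per kb. The first of them is on the plus strand and the others on the minus strand, and the island covered all but the outer genes of the row in full. The other 2 of these islands had 92.6 and 111 per kb. Holding many genes was thus not tied to a high density in these 5 islands.

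A gene beside a touched gene was itself touched more often than a gene beside an untouched one. Over 11159 pairs of neighbouring genes that do not overlap, the next gene along the chromosome had an island in 53.7% of cases (1702 of 3171, interval 51.9 to 55.4%) after a gene with one, and in 19.3% (1540 of 7988) after a gene without. The first share was 51.2 to 58.5% on the 5 arms. Only 498 of the 1702 pairs (29.3%) shared an island, and the others had islands of their own. By strand, both genes had an island in 18.1% of the 5367 tandem pairs (interval 17.1 to 19.2%), 13.0% of the 2983 divergent pairs and 12.1% of the 2809 convergent pairs. A shared island was found in 5.48%, 3.02% and 4.06% of them.

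Along the chromosomes islands came in groups. The gap between neighbouring islands had a median of 2800 bp, and the smallest was 800 bp. Of 12933 gaps, 42.8% were within 2000 bp, 62.0% (interval 61.2 to 62.9%) within 5000 bp and 83.4% within 20000 bp. The share within 5000 bp was 33.6% once islands up to 2000 bp apart had been merged, which removes the closest pairs. On the arms the share within 5000 bp was 59.2% on 2R, 63.0 to 63.2% on 2L, 3L and 3R and 68.5% on X. Close neighbours resembled each other in density, with rho = 0.46 over 8023 pairs up to 5000 bp apart and rho = 0.15 over 2150 pairs more than 20000 bp apart. These pairs come from 1 library and an island enters up to 2 pairs, so both values are descriptions only.

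Islands joined wherever the gap was 5000 bp or less gave 4916 runs. A single island made up 2510 of them (51.1%), which held 13.5% of all island bases. At the other end, 174 runs (3.54%) had 10 islands or more and held 20.7% of islands and 26.5% of island bases, with a median span of 88000 bp (interval 78800 to 99200). The density rose with the size of the run, from a median of 95.5 per kb (interval 94.3 to 96.7) for lone islands through 100 and 107.5 to 122 per kb (interval 116 to 129) for runs of 10 or more.

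The largest runs held few genes. The run with the most islands, 54, lay on 3R from 12814201 to 13062200, where 72.1% of 248000 bp was under islands at 160 per kb and 4 of 5 genes were touched. A run of 48 islands on 3L from 31773201 to 32051800 held only AGAP011711 and AGAP011712, both touched. The widest, with 43 islands on 2L from 22720001 to 23114800, had 86.3% of 394800 bp under islands and 4 genes, AGAP005875, AGAP005876, AGAP005878 and AGAP005880, all touched.

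At the scale of 1 Mb the cover ranged from none to more than 50%. In 228 windows on the 5 arms the share under islands had a median of 22.7% and ran from 0 to 58.8%. The highest windows were on 3L from 40000001 to 41000000 (58.8%), on 3R from 5000001 to 6000000 (56.7%) and on 2R from 17000001 to 18000000 (55.3%), and 41.0%, 42.9% and 51.7% of their genes were touched. Of all windows, 26 were over 40%, of which 10 lay on 2R, and 15 were under 5%, none of them on 2R.

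Several of the windows with the least H3K27me3 lay together at 1 end of an arm. On X, the 4 windows from 20000001 to 24000000 had shares of 0 to 0.7%, and the window from 22000001 to 23000000 had no island over 10 genes. The first 2 windows of 2L and of 3L had 0.76 to 3.34%. The window on 3R from 40000001 to 41000000, inside the arm, also had no island over 4 genes. A window with more cover had a larger share of genes touched (rho = 0.64 across windows) and somewhat denser islands (rho = 0.34), while its number of genes was less closely related (rho = 0.20). The first relation is built in at least in part, since the same islands make up the cover and touch the genes. Reads from repeats were filtered out by the authors, so cover counts sequence that other reads reached.

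**Figure D4:**
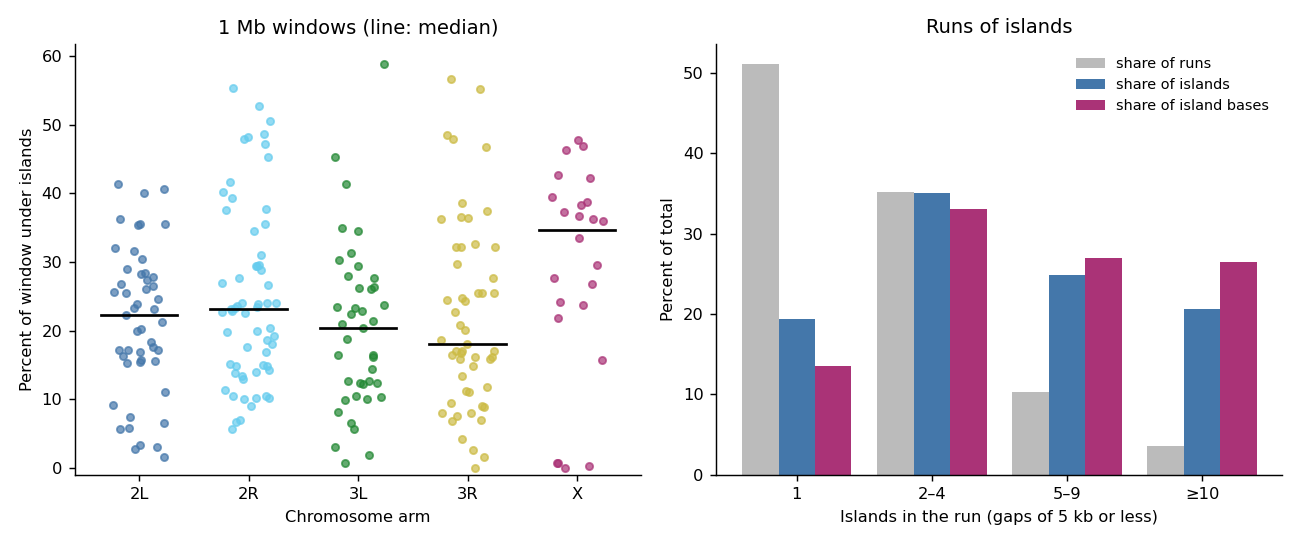
Left, the percent of each 1 Mb window under H3K27me3 islands (vertical axis), with 1 point per window for each chromosome arm, points spread sideways for clarity, and a line at the median. Right, the percent of runs, of islands and of island bases by the number of islands in the run. X has the highest median and also 4 windows near 0, and the 3.54% of runs with 10 islands or more hold 26.5% of island bases.

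Genes with names in the study were then placed on these scales. Its candidate list of immune, digestive, hormonal and insecticide genes has 61 members with a gene model here, of which 24 (39.3%) were touched, beside the background of 28.7%. The list was chosen by the study and no test of it was made. The control genes of the ChIP, Act5C and TER94, had no island, and the nearest were 7372 and 11911 bp away. The touched candidates had a median density of 108 per kb, beside 112 per kb (interval 111 to 113) for all touched genes.

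Vitellogenin (Vg, AGAP004203), the yolk protein precursor that the fat body of blood-fed females secretes, stood far above all other named genes. It lies on 2R from 51786017 to 51792488 on the plus strand, and 1 island from 51787201 to 51795000 covered 81.7% of it with a column 4 value of 3591, which is 460 per kb (counting interval 445 to 476). Spread evenly within the island, this gives 368 per kb over the gene region, the highest of all genes covered to at least 50%, of which the next, AGAP006657 on 2L, had 337. The islands before and after it, at gaps of 1400 and 800 bp, had 101 and 127 per kb. The high density thus belonged to this island, in a run of 4 islands, and not to its neighbours. Of the island, 67.8% lay inside Vg and the rest past the gene end, while the gene start was free. Column 4 is 1 number per island, so its spread between the gene and the sequence past it is not known.

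The other 8 of the 9 genes that follow Vg in density over the gene region carry identifiers only and had 298 to 332 per kb. AGAP009493 on 3R, of 3866 bp, had 332 per kb, and AGAP001741 on 2R had 317. AGAP013464 on X, AGAP012002 on 3L and AGAP003671 on 2R had 316, 315 and 313 per kb. AGAP007060 and AGAP007061, neighbours on 2L, shared 1 island of 14400 bp at 301.25 per kb, and AGAP028257, of 84 bp, lay in an island of 29400 bp. All of these genes were whole under 1 island each.

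In the prophenoloxidases, the precursors of the enzymes of melanization, islands were 600 to 6000 bp long and mostly close to the median density. PPO6, PPO8 and PPO9 sit within 1 run of 3 islands on 2L that spans 9800 bp, with 95 per kb (counting interval 82.0 to 110), 120 (106 to 136) and 109.5 (95.5 to 125). PPO4 and PPO7, in the same part of 2L, had lone islands of 1400 and 1000 bp with 103 and 127 per kb. PPO3 had none, with the nearest 4063 bp away. On other sites PPO1, on 2R, had islands of 600 and 6000 bp with 147 and 81.7 per kb, and PPO2 had 1 with 119 per kb. The counting intervals of the PPO1 islands do not overlap. A short island passes the caller's cutoff only at high density, so this is not read as a difference within PPO1. PPO5 is on UNKN, 284626 bp from any island.

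Antimicrobial peptide genes, which are short, were under islands whole or not at all in most cases. The cecropins CEC1, CEC2 and CEC3 lie side by side on X within a run of 14 islands. CEC2 was whole under an island of 3600 bp at 135 per kb, CEC3 had 77.1% under one of 800 bp at 134 per kb, and CEC1, between them, fell in the gap, 868 bp from the nearest island. DEF1 on 3L had a lone island of 1600 bp with 96.25 per kb (counting interval 81.6 to 113). DEF3 and DEF5 shared an island with 95.5 per kb. DEF2, DEF4, CEC4 and gambicin (GAM1) had none, with the nearest 8513 to 51611 bp away.

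Digestive and redox genes included 2 neighbours under 1 run. The carboxypeptidase B gene AGAP008070 on 3R, from 5051190 to 5065642, had 4 islands with 112 to 167.5 per kb, and NOX5, an NADPH oxidase, from 5067619 to 5085292, had 4 with 77.9 to 124 per kb. An island of 5800 bp, from 5064801 to 5070600, reached from one gene into the other, and both belong to a run of 12 islands over 98800 bp. The other carboxypeptidase B genes are close together on 2L, and of those 5 only AGAP006210 had an island, of 1000 bp with 144 per kb. Nitric oxide synthase (NOS, AGAP008255), over 78212 bp, had 4 islands of 800 to 2000 bp that covered 7.42% of it at 75 to 104 per kb. A further model listed as NOS, AGAP008257, had none, with the nearest 11640 bp away.

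Among the longer named genes with an island, cover was partial. Dscam, an immunoglobulin-domain receptor gene with many alternative exons, had 2 islands of 1800 and 4000 bp with 82.8 and 113.5 per kb. They covered 75.7% of its exon bases and 14.4% of its intron bases. The model used has 17 exons with 5418 bp in all, and any exon missing from it would count here as intron. The sodium channel gene listed as Kdr, over 73460 bp, had 1 island of 1200 bp within an intron, while ACE1, the acetylcholinesterase gene, had 2 of 3800 bp each with 85 and 127 per kb, whose counting intervals do not overlap. APL1C and LRIM1, leucine-rich repeat proteins of the complement-like pathway, had 1 island each, with 92.1 and 84.4 per kb, while APL1A, APL1B and TEP1 of the same pathway had none, so that 2 of 5 were touched.

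Among the named genes with 1 island, neighbours in the order of density had overlapping counting intervals from LRIM1 at 84.4 to AGAP006210 at 144 per kb, and only Vg stood clear of the next gene. Of the C-type lectins 1 of 6 was touched, CTL8, with 2 islands of 92.5 and 127 per kb, and CTL1, CTL2, CTL3, CTL4 and CTL9 had none. Of the inhibitors of apoptosis 1 of 6 was touched, IAP8, with 1 island of 106.5 per kb, and IAP2, IAP3, IAP4, IAP5 and IAP7 had none. CTL5, CTL6, CTL7 and IAP1 had no gene model and are not counted. Each share, 16.7%, rests on 1 of 6 genes and is not read as lower than the 28.7% of all genes. No island touched the 4 genes of Toll and IMD signalling (CACTUS, CASPAR, REL1 and REL2), the 2 models of the ecdysone receptor, the laminin subunit LANB2, the serpin SRPN10 or the 4 CYP6 cytochromes P450. REL1 and SRPN10 had an island close by, at 412 and 856 bp, whereas REL2 was 28312 bp away from any.

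The 2 homeotic genes of the Antennapedia group had the widest islands of the named genes but not the densest. AGAP004659 had islands of 2800, 8200, 1000 and 29200 bp with 86.4, 118, 106 and 141 per kb, and the longest, from 59769201 to 59798400 on 2R, reached past the start of this minus-strand gene, at 59775876. Together they covered 39.9% of its span and 34.6% of its exon bases. AGAP004660 had 6 islands of 3600 to 31000 bp with 102.5 to 138 per kb, 4 of them in introns only, and 99.1% of its exon bases were covered. Over their islands together the genes had 131 and 122 per kb, at percentiles 69.3 and 61.3 of all touched genes.

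**Figure D5:**
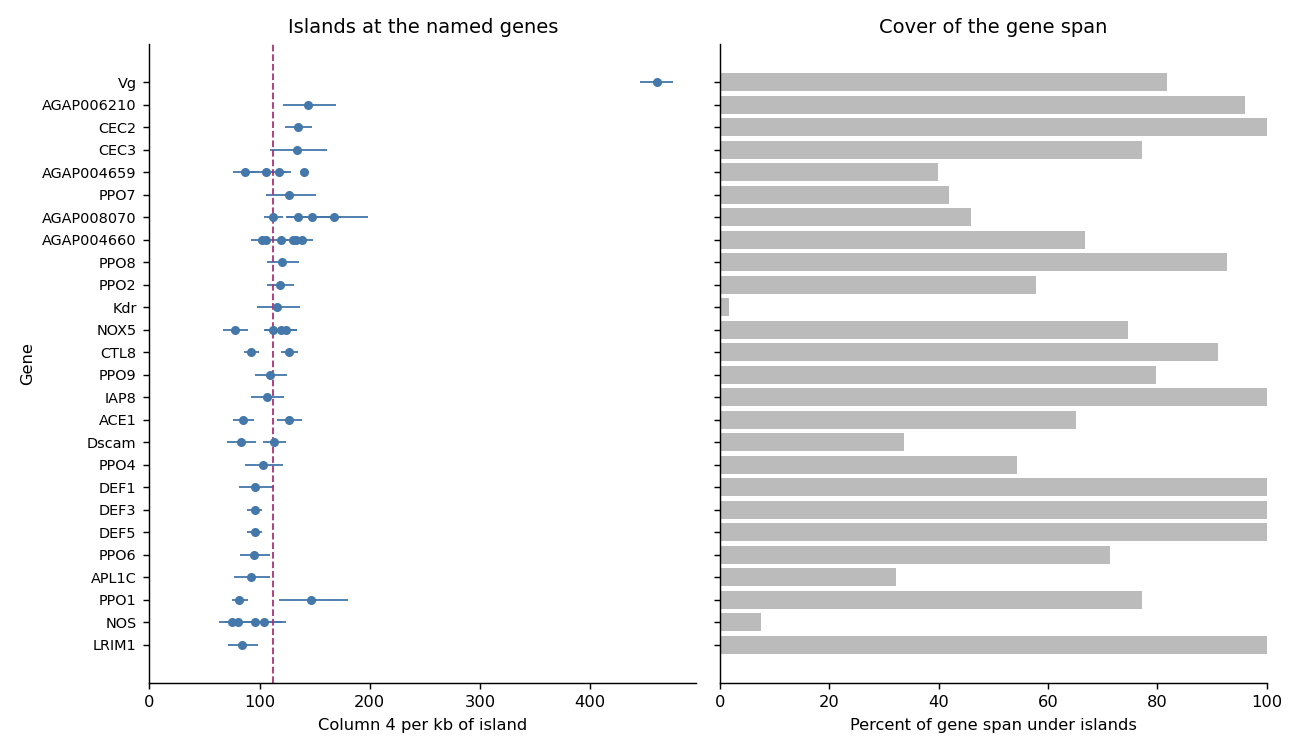
Left, column 4 per kb (horizontal axis) of each island at the named genes that have one, 1 row per gene, with exact Poisson 95% intervals for counting error and a dashed line at the median of all touched genes, 112 per kb. Right, the percent of each gene span under islands. Vg stands alone at 460 per kb, and all other islands lie between 75 and 167.5 per kb.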

How the data were processed

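Pooled midguts of adult females of the Kisumu strain gave 1 H3K27me3 ChIP library and 1 input library, with no replicate. Per the study's methods and processing notes, the authors mapped reads with Bowtie 1.0.0, filtered out repetitive reads, and called islands with SICER against the input. Column 4 of the deposited island list is taken as a count of ChIP reads per island. This reading rests on its values, since the file has no header, and the count is not depth-scaled or input-corrected. The library totals were not used. Gene models were the transcripts with class code = (introns match the annotation) in the authors' Cufflinks 2.1.1 assembly. A gene had an island if at least 1 bp of its span plus 200 bp on each side was covered.

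Intervals are 95% Wilson for shares, order-statistic for medians and exact Poisson for counts. Those for shares and medians treat genes or islands as independent draws, and those for counts cover counting error only. No interval covers variation between animals or libraries. No tests were made. Rank correlations across islands or windows carry no p. Runs joined islands up to 5000 bp apart. Scripts were checked on simulated data (Python 3.11.15, numpy 2.4.6, pandas 2.3.3, scipy 1.17.1, matplotlib 3.10.9).

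Named items were the study's candidate genes, 2 homeotic and 2 control genes, the 10 genes with the most islands and the 10 with the highest column 4 per kb, and the extreme islands, runs and windows. Single genes outside these were named for the islands that touch them. The members and lists were chosen with earlier results of these data known. Gene symbols are the study's, other genes carry identifiers only, and gene families by keyword and sequences of this assembly were not used here. Alternatives changed the island cutoff, merging, flank, overlap and transcript class.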

Additional observations from a re-analysis of the deposited data

How the results depend on the processing

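Without replicates no result could be recomputed with 1 left out. No paired analysis was possible because each group has 1 library and the values come from no test. The number of genes with an island, 3402, ran from 2324 with islands at or above the median column 4 per kb to 3908 with flanks of 1000 bp. The share of islands touching a gene, 38.3%, became 42.7% with islands of at least 2000 bp, 42.7% with islands at or above the median per kb, 44.2% with islands up to 2000 bp apart merged, 40.6% with flanks of 1000 bp, 45.1% with class codes =, j and o together, and 30.9% where at least 50% of the island had to lie inside the gene region. In the order of the first 3 of these settings, genes with several islands fell from 910 to 603, 492 and 476, the median column 4 per kb of 103 became 101.6, 126.25 and 92.5, and the share of neighbouring islands within 5 kb, 62.0%, became 51.4%, 47.8% and 33.6%. Merging removes gaps of up to 2000 bp, and the other 2 settings remove islands, which by construction widens gaps. Islands touching several genes, 550, became 361 at or above the median per kb and 876 with flanks of 1000 bp. The exon share of gene bases under islands, 31.9%, became 36.4% at or above the median per kb, 29.6% with merging and 30.04% with class codes =, j and o. The depth of 1 library limits the shortest islands most, and column 4 carries no correction for the input.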
